A study of Homo sapiens with 12 samples.

Results

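The nuclear genes of respiratory chain complexes II, III and IV and of ATP synthase (complex V) were followed in the human Müller glia line MIO-M1 after siRNA against MAPK14 (p38-alpha) or against MAPK8 and MAPK9 (JNK1 and JNK2). Members were taken by gene symbol. They are SDHA, SDHB, SDHC, SDHD, CYC1 and CYCS and each gene whose symbol begins with UQCR, with ATP5 or with COX and a digit, leaving out pseudogenes. Of the 17992 genes with a row in either experiment, 59 were members. The siMapk14 experiment listed all 59 and the siMapk8+9 experiment 55, and 52 and 53 passed the filter on low counts, 52 of them in both. The symbols do not all name structural subunits. There were 40 subunits of the tissue-wide forms, 9 complex IV assembly factors (COX10, COX11 and COX14 to COX20), cytochrome c (CYCS), the supercomplex factor COX7A2L, the ATP synthase inhibitor ATP5IF1, and 7 copies or tissue-specific forms.

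The study asked which downstream signals change on loss of these kinases, and it sequenced polyadenylated RNA 3 days after siRNA treatment of wild-type MIO-M1 cells. An siRNA against MAPK14, the gene of p38-alpha, was set against its own control siRNA, and siRNAs against MAPK8 and MAPK9, the genes of JNK1 and JNK2, were set against another control set. Each of the 4 groups held 3 libraries, and the labels give the 2 experiments different batch dates, so experiment and batch cannot be told apart. The cells are 1 line, and nothing in the labels says that each library is its own culture; the p-values therefore cover library spread, which may be technical.

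The respiratory chain sits in the inner mitochondrial membrane. Complex II, which is also the succinate dehydrogenase of the citric acid cycle, passes electrons to ubiquinone. Complex III passes them on to cytochrome c, and complex IV passes them to oxygen. The proton gradient that complexes I, III and IV build drives ATP synthase. Complex II is encoded wholly in the nucleus, whereas complexes III, IV and V each combine nuclear subunits with a few made in the mitochondrion. Müller glia, the main glia of the retina, are known for a largely glycolytic metabolism.

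The libraries differed in ways that bear on all the values below. Depth was 31040067 to 31510571 counts in the 6 siControl libraries, 14516406 to 19463837 after siMapk14 and 9246294 to 20136463 after siMapk8+9. Mitochondrially encoded genes took 1.56% to 2.03% of counts in controls, 32.1% to 45.0% in siMapk14, and 36.9%, 8.93% and 35.0% in siMapk8+9 replicates 1, 2 and 3. Of 18 Müller glia markers 14 to 16 were detected per library, at a summed 8740 to 13089 CPM (counts scaled to a common library total, here of nuclear-encoded counts). VIM and CD44 led that sum, while RLBP1 and KCNJ10 stood at 0 in most libraries and AQP4 was not analysed here. Of 18 epithelial markers 9 to 18 were detected, at 95.5 to 131 CPM in all libraries but siMapk8+9 replicate 2, which held 1692 CPM, including 409 CPM of KRT14 and 240.3 CPM of KRT5. The targets fell: MAPK14 to 43.6% of control (log2 fold change -1.20, edgeR adjusted p = 9.95e-06), MAPK8 to 35.8% and MAPK9 to 35.6% (edgeR adjusted p = 0.000667 and 0.00103).

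Relative to the other genes of the same libraries, most nuclear genes of complexes II to V were higher after either knockdown. In the deposited TPM, which hold the mitochondrially encoded reads, nearly all were lower, as were nearly all genes tested (given after the counts). Values are CPM scaled by TMM (trimmed mean of M-values) within each experiment, fold changes are log2 of knockdown over the experiment's own siControl with their standard error (SE), and adjusted p-values come from edgeR's quasi-likelihood test with Benjamini-Hochberg adjustment over all genes tested, with 0.05 as the threshold. After siMapk14, 49 of the 52 tested members rose, with a median log2 fold change of 1.09 over all 52. In that comparison 59.9% of all genes tested passed the threshold, 29.4% higher and 30.5% lower, at a median of -0.02. None of the members fell by edgeR or by DESeq2, and 1 was lower at an unadjusted p under 0.05 by each tool. After siMapk8+9, 46 of 53 rose, with a median of 1.36, against 52.9% of all genes called, 26.8% higher and 26.1% lower, at a median of -0.05. None fell there either by edgeR or DESeq2, with 1 lower at an unadjusted p under 0.05. A total of 45 of the 52 members tested in both experiments rose in both. The share of all genes that did so is not given here.

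The direction depends on what the values are relative to. In TPM, which the authors scaled by length to a common sum per library, the mean of all 52 tested members was lower after siMapk14, at a median of 0.567 of control, and that of all genes tested was 0.281 of control. Of all genes tested, 98.1% were lower as well. COX4I1, for example, went from 1086 to 585 TPM and SDHA from 93.8 to 23.7 TPM. After siMapk8+9 48 of 53 were lower and 5 higher (COX5B, COX6A1, COX7B, ATP5F1E and ATP5PD), at medians of 0.745 for the members and 0.339 for all genes. There 94.5% of all genes tested were lower. Mitochondrially encoded genes took 5.36% to 5.72% of TPM in the siControl libraries of siMapk14 and 56.7% to 66.8% in siMapk14, and 8.39% to 8.61% and 23.2% to 58.2% in the other experiment. With TPM rescaled over nuclear-encoded genes alone, 45 of 52 members were above control in siMapk14 (median 1.43 of control, against 0.707 for all genes) and 41 of 53 in siMapk8+9 (1.37 against 0.542). On that scale 73.7% and 80.8% of all genes tested were below control. So the members stood above the typical gene on each of these scales, while a rise against control is tied to the scaling. None of these scales removes the trend of fold change with length, described further on. Under TMM the members' median lay 1.11 and 1.41 above that of all genes in siMapk14 and siMapk8+9 (log2). With the effective-length trend removed it lay 0.25 and 0.29 above. No test was run on TPM.

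The share of reads was higher too, by an amount that depends on the total. The members together took 0.503%, 0.499% and 0.493% of nuclear-encoded counts in the siControl libraries of siMapk14, and 0.949%, 0.970% and 0.886% in siMapk14 replicates 1, 2 and 3. The siControl libraries of siMapk8+9 gave 0.457%, 0.462% and 0.457%, and siMapk8+9 replicates 1, 2 and 3 gave 0.992%, 0.652% and 1.03%. Of all counts, mitochondrially encoded ones included, the members took 0.486% to 0.495% in siControl against 0.560%, 0.533% and 0.601% in siMapk14, and 0.448% to 0.453% against 0.626%, 0.594% and 0.667% in siMapk8+9. No knockdown library overlapped its controls on either total. Within siMapk8+9, replicate 2, the library with the epithelial transcripts and the low mitochondrial share, lay closest to its controls on both totals. Over single genes, 48 of 52 members in siMapk14 and 49 of 53 in siMapk8+9 were above every control in every knockdown library, beside 32.9% and 31.6% of all genes tested.

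**Figure D1:**
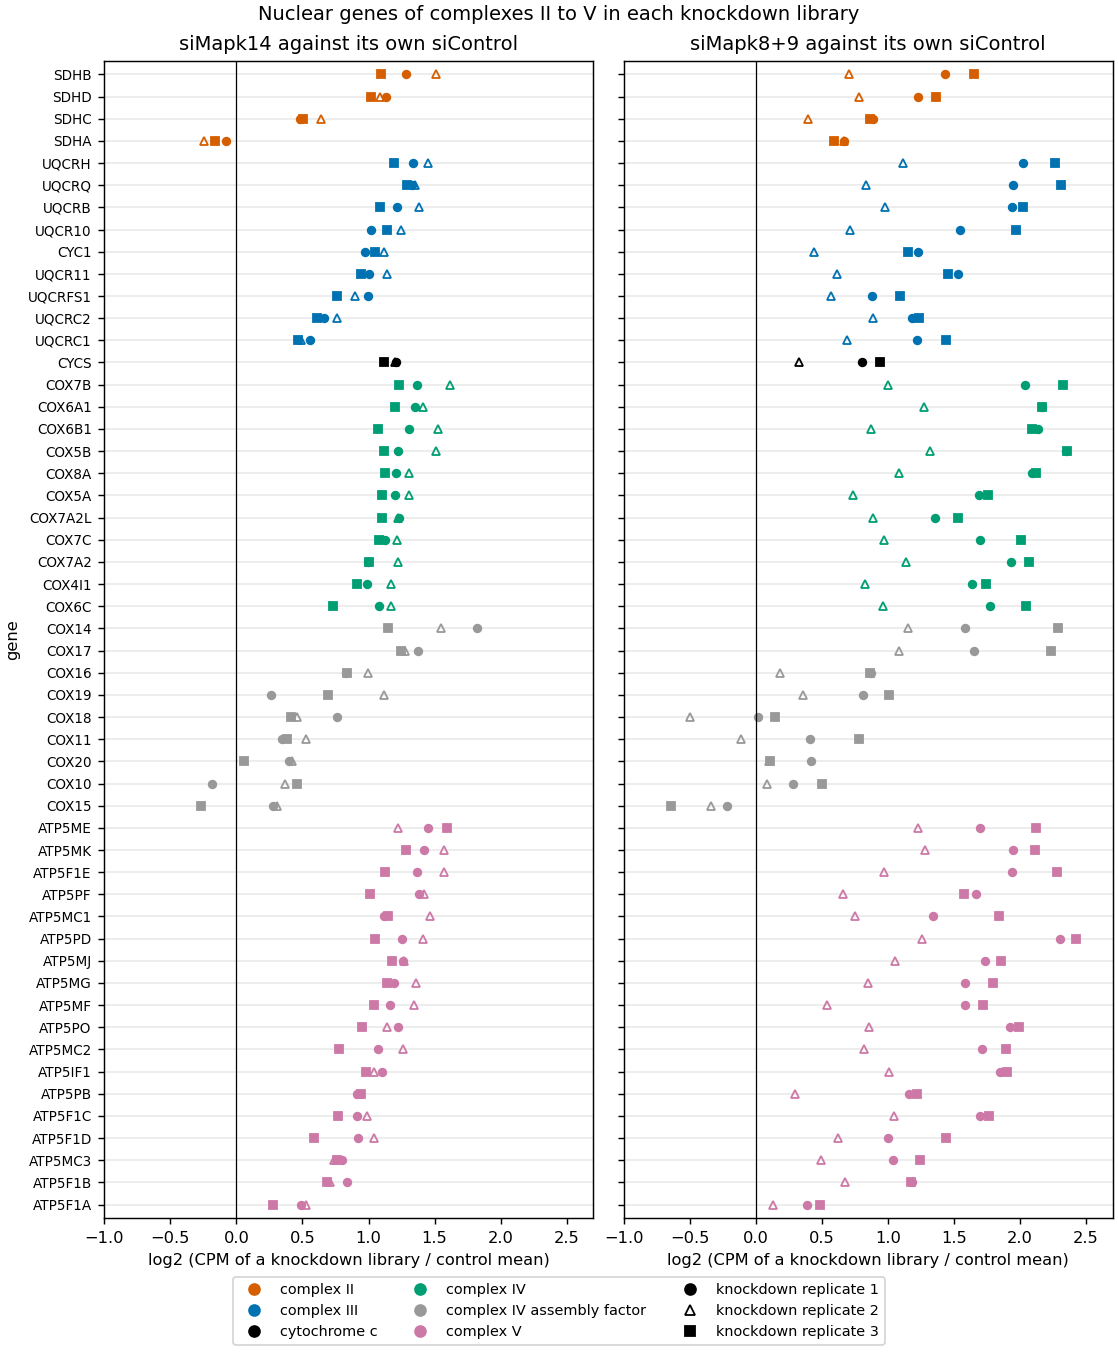
Log2 of the CPM of each knockdown library over the mean of its 3 siControl libraries, for 52 genes grouped by complex, with siMapk14 on the left and siMapk8+9 on the right. The siMapk14 replicates lie close together at medians of 1.11, 1.21 and 1.01, whereas siMapk8+9 replicate 2 (open triangles, median 0.80) lies to the left of replicates 1 and 3 (1.58 and 1.75) for most genes.

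The 3 siMapk14 libraries gave similar shifts, with medians over the members of 1.11, 1.21 and 1.01 on the log2 scale. In siMapk8+9 the medians were 1.58, 0.80 and 1.75, and replicate 2 alone was the lowest library for 50 of 53 members. Without replicate 2, 50 members rose, 1 fell and the median was 1.70. Of all 13444 genes tested in that fit, 4514 were higher and 5040 lower. The part of the epithelial transcripts or of the mitochondrial share in this spread was not tested. Fits without the mitochondrially encoded genes gave 49 and 46 members higher and medians of 1.09 and 1.36 (log2), and SDHA was then lower in siMapk14. In these fits 7922 and 6944 genes of all kinds passed, in either direction, and the share of all genes higher in them is not given here.

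Under TMM scaling complex II was split in siMapk14, where SDHA stood apart from the other subunits. SDHA (gene ID 6389, GRCh38.p14 chromosome 5, 218320 to 268746) is the flavoprotein that oxidises succinate. Its level was 99.4, 99.4 and 98.8 CPM in the siControl libraries of siMapk14 and 93.7, 83.7 and 88.5 CPM in siMapk14, all below control. The difference did not pass the threshold (99.2 ± 0.344 against 88.6 ± 5.00 CPM, SD, n = 3 each; log2 fold change -0.16 ± 0.06 SE, edgeR adjusted p = 0.0515). In the other experiment SDHA stood at 74.6, 71.7 and 70.4 CPM in siControl and at 114, 115 and 109 CPM in siMapk8+9. There it rose by 0.64 ± 0.09 (edgeR adjusted p = 0.00203), and, as for COX15, replicate 3 and not replicate 2 was its lowest siMapk8+9 library.

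The other complex II subunits rose in both. SDHB (gene ID 6390, chromosome 1, 17018722 to 17054032), the iron-sulfur subunit, went from 72.6, 73.3 and 69.6 to 175, 205 and 154 CPM in siMapk14. It went from 69.7, 70.2 and 68.8 to 187, 113 and 218 CPM in siMapk8+9. The knockdown libraries lay above every control in both, with log2 fold changes of 1.30 ± 0.10 and 1.31 ± 0.23 (edgeR adjusted p = 1.13e-05 and 0.00422). SDHD, a membrane anchor that binds ubiquinone, rose by 1.08 and 1.14, and SDHC, the other anchor, rose by 0.54 and 0.73, both on the log2 scale. So under TMM scaling the 4 subunits of 1 complex ranged from -0.16 to 1.30 within siMapk14, and from 0.64 to 1.31 within siMapk8+9. SDHA is the longest of the 4, at an effective length of 2380 bases against 721 to 1044. With the trend on effective length removed (described further on), SDHA stood at -0.23 and SDHC at -0.12 in siMapk14, SDHB at 0.49 and SDHD at 0.45. On GENCODE 29 lengths SDHC lay below SDHA there (-0.53 and -0.29). SDHC was also lower in siMapk8+9 on those lengths (-0.76, edgeR adjusted p = 0.00553). SDHA has 4 annotated pseudogenes in RefSeq, SDHC 5 and SDHD 7, so reads that match both cannot be assigned with certainty.

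**Figure D2:**
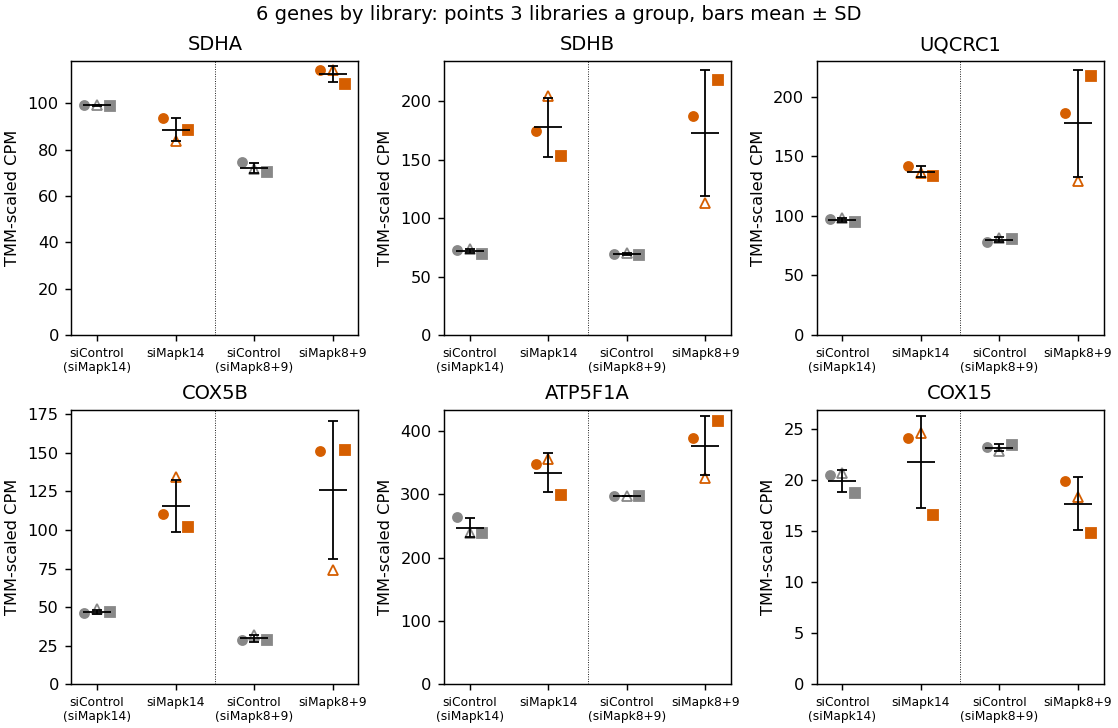
TMM-scaled CPM of 6 genes in each of the 12 libraries, with points for libraries (open triangle, replicate 2) and bars for the mean ± SD of 3; each experiment was scaled on its own, so levels compare within an experiment. SDHA lies at 83.7 to 93.7 CPM in siMapk14, below its controls, and at 109 to 115 CPM in siMapk8+9, above its controls, while COX15 overlaps its controls in siMapk14 and lies below them in siMapk8+9.

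The start regions of 5 members are shown because their genes moved differently: SDHB, SDHD and COX17 rose in both experiments, SDHA rose in 1, and COX10 did not pass in either. Sequences are RefSeq's (GRCh38.p14), from 170 bases before to 30 bases after the annotated start, on the strand of the gene. Capitals mark the letters of 3 motifs of factors known to bind nuclear respiratory genes. These are the NRF1 motif, in a strict form and in a looser form that lets any base stand at the sixth position, CCGGAAG for the ETS family, to which GABPA belongs, and AAGATGGCG for YY1, on either strand.
SDHA, chr5:218150-218349, plus strand: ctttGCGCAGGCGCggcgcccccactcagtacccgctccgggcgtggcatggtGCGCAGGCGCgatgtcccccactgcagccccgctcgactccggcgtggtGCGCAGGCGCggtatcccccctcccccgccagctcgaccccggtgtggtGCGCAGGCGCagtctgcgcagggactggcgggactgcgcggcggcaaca
SDHB, chr1:17054003-17054202, minus strand: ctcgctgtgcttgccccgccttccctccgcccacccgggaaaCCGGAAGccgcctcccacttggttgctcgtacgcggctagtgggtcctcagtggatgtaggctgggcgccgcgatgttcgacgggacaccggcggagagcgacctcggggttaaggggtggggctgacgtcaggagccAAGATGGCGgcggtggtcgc
SDHD, chr11:112086703-112086902, plus strand: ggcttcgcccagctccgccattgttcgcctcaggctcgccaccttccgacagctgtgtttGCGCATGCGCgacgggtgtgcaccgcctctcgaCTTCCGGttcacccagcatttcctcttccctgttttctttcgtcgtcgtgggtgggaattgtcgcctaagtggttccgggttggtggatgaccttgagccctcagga
COX17, chr3:119677377-119677576, minus strand: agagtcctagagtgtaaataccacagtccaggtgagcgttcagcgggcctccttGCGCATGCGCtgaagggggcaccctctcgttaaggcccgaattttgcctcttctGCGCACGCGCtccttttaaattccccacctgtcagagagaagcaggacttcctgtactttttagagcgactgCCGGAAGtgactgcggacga
COX10, chr17:14069334-14069533, plus strand: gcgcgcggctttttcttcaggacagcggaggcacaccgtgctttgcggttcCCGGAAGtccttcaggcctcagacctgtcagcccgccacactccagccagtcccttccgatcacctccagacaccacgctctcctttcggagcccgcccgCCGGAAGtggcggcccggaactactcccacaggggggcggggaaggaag

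In these windows SDHA carries 4 matches to the looser NRF1 letters and none of the stricter ones, SDHB a match to the ETS and to the YY1 letters, and SDHD matches to NRF1 and ETS letters. COX17 has the strict and the loose NRF1 letters and 1 ETS match, and COX10 has 2 ETS matches. Over the 300 bases that the RefSeq table gives for 47 of the members (first listed start of each gene), 18 members (38.3%) hold the ETS letters, against 10.7% of all 27305 promoters. The strict NRF1 letters occur in 4 members (8.51%, against 1.36%), the looser ones in 13 (27.7%, against 6.28%) and the YY1 letters in 4 (8.51%, against 1.85%). The looser form, which contains the strict form, was added after the sequences had been seen. A match describes letters only: members with matches are found among those that rose and those that did not.

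All 9 tested complex III subunits rose in both experiments, with medians of 1.05 in siMapk14 and 1.25 in siMapk8+9 on the log2 scale. UQCRH, the acidic hinge protein that helps cytochrome c dock, had the highest fold change of the complex in both. It went from 78.9, 86.8 and 82.1 to 209, 225 and 189 CPM in siMapk14 (1.33 ± 0.08, edgeR adjusted p = 5.28e-06). In siMapk8+9 it went from 61.2, 63.0 and 65.1 to 256, 136 and 303 CPM (1.87 ± 0.28, edgeR adjusted p = 0.0024). UQCRH has 4 annotated pseudogenes and a near-identical copy, UQCRHL, so its counts could include reads of those.

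The core proteins of complex III are large subunits on its matrix side. UQCRC1 (gene ID 7384, chromosome 3, 48599002 to 48609646) went from 96.9, 98.1 and 94.7 to 142, 136 and 133 CPM in siMapk14, the lowest fold change of the complex (0.50 ± 0.06, edgeR adjusted p = 7.46e-05). In siMapk8+9 it went from 77.9, 81.6 and 80.5 to 186, 129 and 217 CPM (1.15 ± 0.19, edgeR adjusted p = 0.00346). UQCRC2 rose by 0.68 and 1.11. UQCRFS1, the Rieske iron-sulfur protein, rose by 0.89 and 0.86, the latter the lowest of the complex in siMapk8+9. CYC1, the cytochrome c1 haem protein, rose by 1.05 and 0.98. The small subunits UQCRQ, UQCRB, UQCR10 and UQCR11 rose by 1.03 to 1.32 in siMapk14 and by 1.25 to 1.81 in siMapk8+9. All knockdown libraries lay above all controls for each of these genes.

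CYCS, the soluble electron carrier between complexes III and IV and an activator of caspases when released, stood at 223, 233 and 230 CPM in siControl and at 529, 525 and 496 CPM in siMapk14. In the other experiment it stood at 314, 294 and 297 CPM in siControl and at 526, 377 and 580 CPM in siMapk8+9. It rose in both, by 1.18 ± 0.06 and 0.71 ± 0.18 (edgeR adjusted p = 3.09e-06 and 0.0143), and was among the 9 of 52 members with the smaller fold change in siMapk8+9. CYCS has 45 annotated pseudogenes, the most of any member, which leaves its count uncertain.

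The 10 complex IV subunits moved as a narrow group in siMapk14, between 1.00 (COX6C) and 1.41 (COX7B) with a median of 1.21, and between 1.45 (COX4I1) and 2.08 (COX5B) with a median of 1.78 in siMapk8+9. All 10 rose in both. COX5B, a zinc-binding peripheral subunit, went from 46.2, 48.6 and 46.5 to 110, 134 and 102 CPM in siMapk14. It went from 28.5, 32.2 and 28.5 to 151, 74.1 and 152 CPM in siMapk8+9, the highest of the complex (2.08 ± 0.28, edgeR adjusted p = 0.00179). COX4I1, the ubiquitous form of the subunit that binds ATP, was the most abundant transcript of the complex by counts and rose by 1.03 and 1.45.

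Of the other complex IV subunits, COX7B went from 40.4, 38.2 and 40.5 to 103, 122 and 93.3 CPM in siMapk14 (1.41 ± 0.10, edgeR adjusted p = 8.85e-06) and rose by 1.88 in siMapk8+9. COX6C went from 58.5, 57.1 and 55.5 to 120, 129 and 94.9 CPM in siMapk14 and rose by 1.66 in siMapk8+9. COX6A1, COX6B1, COX8A, COX7A2, COX7C and COX5A rose by 1.08 to 1.32 in siMapk14 and by 1.46 to 1.92 in siMapk8+9, with no library overlapping the controls. COX7A2L, which joins complexes III and IV into supercomplexes, rose by 1.19 and 1.28. COX4I2 and COX7A1, the hypoxia-linked and the muscle form, were not analysed here. COX6C has 18 pseudogenes and COX5B 8, with the same limit as above.

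The complex IV assembly factors had lower median fold changes than the subunits under TMM scaling, a difference that was not tested. In siMapk14 7 of 9 rose, at a median of 0.55, and in siMapk8+9 4 of 9 rose, at a median of 0.40 on the log2 scale. With the length trend removed (described further on) the order of the medians turned in siMapk14, where 5 of 9 factors were higher at 0.39 and 4 of 10 subunits at 0.11. In siMapk8+9 1 of 9 factors was then higher at 0.12 and 4 of 10 subunits at 0.22. COX10, which makes haem O, stood at 13.7 to 15.2 CPM in siControl and 12.8, 18.9 and 20.1 CPM in siMapk14, with overlapping groups (0.24 ± 0.17, edgeR adjusted p = 0.238). In siMapk8+9 its 18.7, 16.4 and 21.8 CPM lay above the controls' 14.7, 15.7 and 15.9 CPM, without passing the threshold (0.29 ± 0.15, edgeR adjusted p = 0.149). COX15, which turns haem O into haem A, stood at 20.4, 20.6 and 18.7 CPM in siControl and 24.1, 24.6 and 16.5 CPM in siMapk14 (0.12 ± 0.15, edgeR adjusted p = 0.542). In siMapk8+9 its 19.9, 18.3 and 14.8 CPM lay below the controls' 23.2, 22.8 and 23.4 CPM (-0.39 ± 0.15, edgeR adjusted p = 0.0618), and without replicate 2 it was lower (edgeR adjusted p = 0.0313).

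The copper and membrane factors were mixed. COX17, the copper chaperone of the intermembrane space, rose from 14.2, 13.7 and 14.4 to 36.6, 34.2 and 33.5 CPM in siMapk14 and from 10.3, 10.1 and 9.49 to 31.3, 21.1 and 46.8 CPM in siMapk8+9 (1.30 ± 0.09 and 1.72 ± 0.28). COX14, a small membrane protein needed for COX1 synthesis, had the highest fold change of all 52 members in siMapk14 under TMM scaling, from 6.33, 6.86 and 6.39 to 23.0, 19.1 and 14.5 CPM (1.52 ± 0.18, edgeR adjusted p = 0.000108), and rose by 1.73 in siMapk8+9. With the effective-length trend removed neither passed in siMapk14, COX14 at 0.33 (edgeR adjusted p = 0.121) and COX17 at 0.04 (edgeR adjusted p = 0.773). COX16 and COX19 rose in both, by 0.89 and 0.72 in siMapk14 and by 0.66 and 0.74 in siMapk8+9. COX11, which delivers copper to COX1, rose in siMapk14 (0.42, edgeR adjusted p = 0.000953) and did not pass in siMapk8+9 (0.40 ± 0.21, edgeR adjusted p = 0.156). COX20, a COX2 chaperone, was close to the threshold in siMapk14 with overlapping groups (0.30 ± 0.11, edgeR adjusted p = 0.0446) and did not pass in siMapk8+9 (0.21 ± 0.12, edgeR adjusted p = 0.18). COX18, the COX2 insertase, rose in siMapk14 (0.55 ± 0.15, edgeR adjusted p = 0.0114) and stood at -0.11 ± 0.22 in siMapk8+9 (edgeR adjusted p = 0.697).

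ATP synthase consists of a catalytic F1 head, a membrane part with a ring of c subunits, and a peripheral stalk that joins them. All 17 subunits rose in siMapk14, at a median of 1.19, and 16 of 17 in siMapk8+9, at a median of 1.46. In the F1 head, ATP5F1A (gene ID 498, chromosome 18, 46080248 to 46104227), the alpha subunit, had the lowest fold change of the complex in both. It went from 264, 239 and 239 to 348, 356 and 299 CPM in siMapk14 (0.43 ± 0.08, edgeR adjusted p = 0.00159). In siMapk8+9 its 390, 325 and 416 CPM lay above the controls' 298, 297 and 298 CPM, without passing the threshold (0.34 ± 0.13, edgeR adjusted p = 0.0609), though it passed without replicate 2 (0.45, edgeR adjusted p = 4.94e-05).

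ATP5F1B, the catalytic beta subunit, was the most abundant member by counts and rose from 424, 401 and 395 to 726, 665 and 655 CPM in siMapk14. It rose by 0.75 and 1.03 in the 2 experiments. ATP5F1C and ATP5F1D, subunits of the central stalk, rose by 0.89 and 0.86 in siMapk14 and by 1.53 and 1.05 in siMapk8+9. ATP5F1E, the smallest of the head, rose from 78.3, 80.9 and 78.8 to 205, 235 and 173 CPM (1.36 ± 0.10) in siMapk14 and by 1.82 in siMapk8+9. So the 5 genes of the head ranged from 0.43 to 1.36 in siMapk14.

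The c ring, the stalk and the small membrane subunits followed. ATP5MC1, ATP5MC2 and ATP5MC3 encode the same mature c subunit, and they rose by 1.25, 1.05 and 0.77 in siMapk14 and by 1.36, 1.54 and 0.96 in siMapk8+9. Of the stalk genes, ATP5PD (gene ID 10476, chromosome 17, 75038863 to 75046969) went from 80.8, 77.1 and 75.0 to 185, 207 and 161 CPM in siMapk14. It went from 55.3, 52.9 and 53.5 to 266, 128 and 289 CPM in siMapk8+9 (2.08 ± 0.30, edgeR adjusted p = 0.00205). Under TMM scaling ATP5PD and COX5B (2.08) were level as the highest of all members there. With the effective-length trend removed the highest was UQCRB (2.65). ATP5PB, ATP5PF and ATP5PO rose by 0.93 to 1.28 in siMapk14 and by 0.95 to 1.67 in siMapk8+9. The small membrane subunits ATP5ME, ATP5MF, ATP5MG, ATP5MJ and ATP5MK rose by 1.19 to 1.44 in siMapk14, with ATP5ME the highest of the complex (from 10.7, 11.7 and 11.6 to 30.9, 26.5 and 34.2 CPM), and by 1.36 to 1.81 in siMapk8+9. ATP5IF1, the inhibitor that blocks ATP hydrolysis by the enzyme, rose by 1.04 and 1.63.

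The 7 copies and tissue forms gave little signal. COX6A2, COX6B2, COX7B2, COX8C, ATP5MGL and UQCRHL had siControl means of 0.33 to 1.67 counts in the siMapk14 experiment and were not tested. ATP5MF-PTCD1, a readthrough gene that shares its reads with ATP5MF, was tested in siMapk8+9 only, at 0.995, 0 and 1.45 CPM in siControl and 6.73, 0 and 0 CPM after knockdown (edgeR adjusted p = 0.56).

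Comparing the knockdowns, 43 of 52 members had the larger fold change in siMapk8+9 under TMM scaling. In the joint fit the median difference was -0.29, and with the length trend removed it was -0.02, with 28 of 53 members below 0 and 25 above. The difference itself, the siMapk14 effect minus the siMapk8+9 effect, was tested in 1 fit of all 12 libraries. Of 53 members 2 passed as lower and 0 as higher, against 9.02% and 6.87% of all genes. At an unadjusted p under 0.05 edgeR gave 11 lower and 3 higher, and after adjustment DESeq2 gave 4 lower and 0 higher. SDHA differed by -0.81 ± 0.11 (edgeR adjusted p = 0.000478; 0.0623 under total-count scaling) and UQCRC1 by -0.65 ± 0.20 (edgeR adjusted p = 0.0475). For SDHA the adjusted p stayed between 4.39e-05 and 0.0034 whichever library was left out, while for UQCRC1 it ranged from 2.53e-05 to 0.11. For 45 members the rise passed in both experiments, for 4 (COX11, COX18, COX20 and ATP5F1A) only that in siMapk14, and for SDHA only that in siMapk8+9; of these, only the SDHA difference passed its own test.

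The count for the difference rested on 1 library. Without siMapk8+9 replicate 2, 33 members were lower and 1 higher, against 17.1% and 20% of all genes. All 10 complex IV subunits were then among the lower ones, with a median difference of -0.78 (log2), and SDHA differed by -0.75. Without replicate 2 and with the length trend removed (described next), 15 members were lower and 5 higher, against 18% and 16% of all genes. Of the 10 complex IV subunits 3 were then lower (COX5B, COX6C and COX7B), at a median of -0.13, and SDHA differed by -0.80 (edgeR adjusted p = 2.53e-05).

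Fold changes over all genes fell with transcript length, and most members are short. Effective length, the length over which a fragment can start, was read from the deposited counts and FPKM. With all genes in 5 bins of equal size by length, those in the shortest bin (up to 1508 bases in the siMapk14 fit) had a median log2 fold change of 0.72 after siMapk14, and 68.2% of them were called higher. Those in the longest bin (5124 bases and above) had a median of -0.57, and 7.38% were called higher. Of the 52 members, 36 lay in the shortest bin, all 36 rose, and their median of 1.19 was 0.46 above that of the bin. In siMapk8+9 the shortest bin had a median of 0.95 and its 36 members 1.54, or 0.58 above. In the other bins, members' medians were 0.49 to 1.75 above those of the bin in siMapk14 and 0.67 to 2.14 above in siMapk8+9, over 3 to 6 members each. The 1.75 and the 2.14 are those of the longest bin, and the 2.14 rests on the value of ATP5MF-PTCD1. Among the members alone the median also fell with length up to the longest bin. From the shortest bin on it was 1.19, 0.72, 0.65 and 0.55 in siMapk14, and 1.54, 0.95, 0.63 and 0.30 in siMapk8+9. The longest bin, with 3 members in each experiment, broke this fall at 1.18 and 1.36. In siMapk14 its members were UQCRB, CYCS and ATP5F1A, whose lengths are uncertain (described further on). In siMapk8+9 the 1.36 is the value of ATP5MF-PTCD1, the sparsely counted readthrough gene, which did not pass the threshold.

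**Figure D3:**
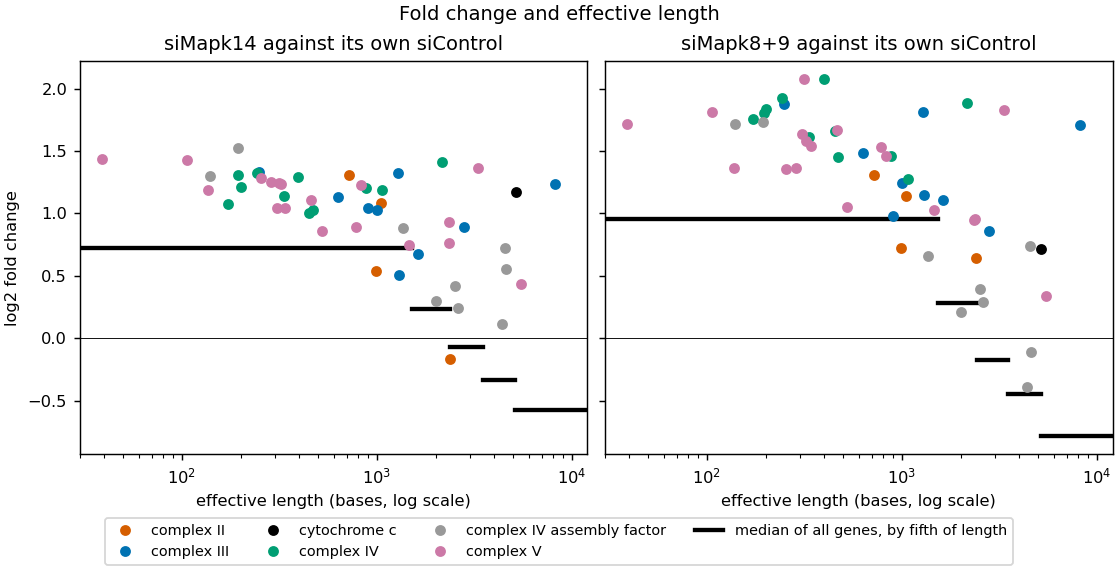
Log2 fold change against effective length in bases (log axis) for 52 genes, coloured by complex, with black bars at the median of all genes in each of the 5 length bins. Members lie above the black bars for most lengths, and the black bars fall from 0.72 to -0.57 in siMapk14 and from 0.95 to -0.78 in siMapk8+9.

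When a lowess trend of count on effective length was removed within each library, 28 members rose and 1 fell in siMapk14 at a median of 0.26, against 24.3% and 21.9% of all genes higher and lower. In siMapk8+9 22 rose and 1 fell at a median of 0.31, against 21.4% and 16.5%. The 1 that fell was SDHA in siMapk14 (-0.23, edgeR adjusted p = 0.0127) and ATP5MF in siMapk8+9 (-0.50, edgeR adjusted p = 0.00469). In siMapk14 and siMapk8+9, 8 and 5 of the 9 complex III subunits were then higher, 4 and 4 of 10 in complex IV, 7 and 8 of 17 in complex V, and 2 and 2 of 4 in complex II. The 8 include ATP5F1A, which had not passed before removal. Removal of the same trend on GENCODE 29 transcript lengths gave 39 higher and 3 lower in siMapk14 (SDHA, SDHC and COX11), against 25.9% and 23.3% of all genes. It gave 26 higher and 3 lower in siMapk8+9 (SDHC, COX11 and ATP5MF), against 22.6% and 18.2%. For the difference between the knockdowns, with the effective-length trend removed, 2 members were higher (ATP5MF and ATP5PF) and 3 lower (SDHA, UQCRC1 and ATP5F1C), against 7.57% and 10.8% of all genes.

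The lengths themselves were uncertain for some members. UQCRB had an effective length of 8167 bases against a median transcript of 645 bases in GENCODE 29, CYCS 5138 against 974, COX7B 2150 against 605 and ATP5F1A 5473 against 2102. At the other end ATP5ME had 39 bases against 365. The effective length of the short members also shifted between libraries: ATP5ME had 35 to 42 bases in siControl and 49 to 55 in siMapk14, and UQCRH 244 to 256 and 271 to 281. The part of this shift in the fold changes of short genes was not tested apart from the offset. With each library's own effective length as an offset, 48 members rose and 1 fell in siMapk14 and 46 rose in siMapk8+9. Among genes of all kinds, 7310 and 6408 passed with that offset, in either direction. The share of all genes higher under it is not given here, so these member counts have no background to be set against.

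A total of 19 members rose in both experiments with the effective-length trend removed, and 12 did under both length measures. Singly, 24.3% and 21.4% of all genes were higher with that trend removed, and 25.9% and 22.6% on GENCODE lengths. The share of all genes higher in both is not given here, so the 19 and the 12 have no background to be set against. The 12 were UQCRFS1, UQCRC2 and UQCRB of complex III, COX5B, COX6A1 and COX7B of complex IV with COX7A2L and COX19, and ATP5F1B, ATP5F1E, ATP5PB and ATP5PD of ATP synthase. No gene of complex II was among them. UQCRB, for example, stood at 73.2, 74.6 and 71.5 CPM in siControl and 170, 190 and 156 CPM in siMapk14, and its log2 fold change of 1.23 was 1.87 with the trend on effective length removed and 0.33 with that on GENCODE lengths.

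**Figure D4:**
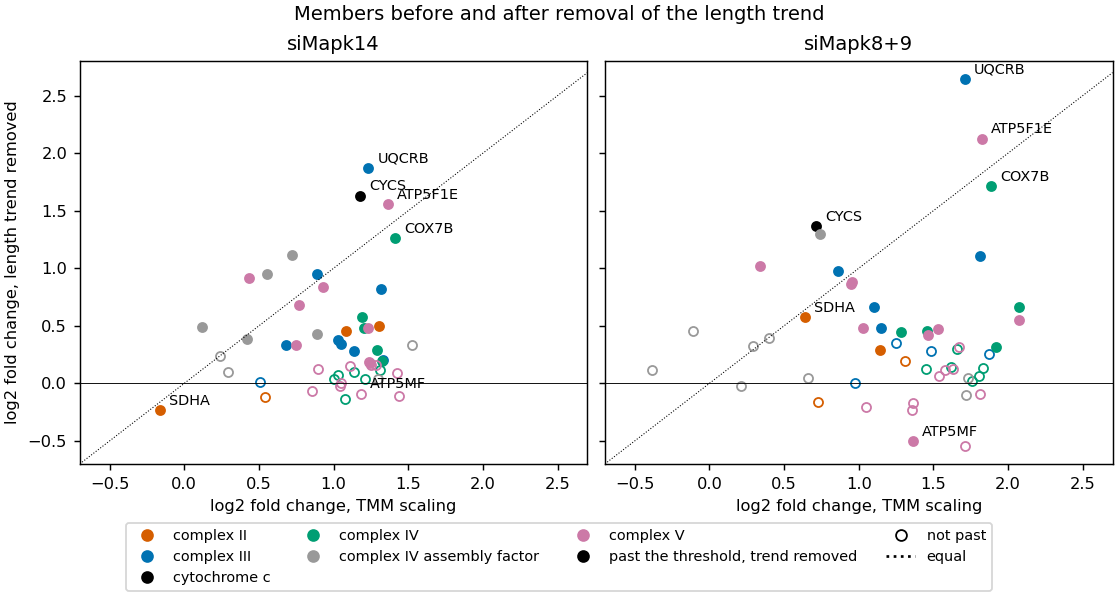
Log2 fold change with the effective-length trend removed (vertical axis) against that under TMM scaling alone (horizontal axis) for 52 genes, with filled points past the threshold after removal and a dotted line for equal values. Most points lie below the line, between 0 and 0.50 up, while UQCRB, CYCS, ATP5F1E, COX7B and COX19 lie above 1.00 on the vertical axis in both panels and SDHA and ATP5MF are labelled as the 2 that fell in 1 panel each.

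Scaling to total counts, which hold the mitochondrially encoded reads, moved the median of all genes to -0.79 in siMapk14 and -0.71 in siMapk8+9 on the log2 scale. The members' medians were then 0.31 and 0.61, or 1.11 and 1.32 above those of all genes. Under it 32 members were higher and 5 lower in siMapk14 (SDHA, COX11, COX15, COX20 and ATP5F1A), against 5.53% and 63.4% of all genes, and 34 higher and 2 lower in siMapk8+9 (COX15 and COX18), against 8.55% and 37.4%. SDHA in siMapk8+9 stood at -0.03 under that scaling. Of the 12 genes above, ATP5F1E, ATP5PD, COX5B, COX6A1, COX7A2L, COX7B and UQCRB were also higher in both experiments under it.

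Levels per length differed widely between members. In TPM, the deposited length-scaled unit, the siControl libraries of siMapk14 held most of COX4I1 (1086 ± 18.2, SD, n = 3), then ATP5MF (908 ± 36.5) and COX6A1 (901 ± 6.42), the last pair within their spread of each other. COX7A2 (758 ± 19.8) and UQCRH (741 ± 28.0) also lay within their spread. The other control set put ATP5MF first (1095 TPM), then COX4I1 (911 TPM), COX6A1 (775 TPM) and COX7A2 (705 TPM). At the low end of the tested members lay COX18 (3.88 ± 0.146 TPM), COX15 (10.3 ± 0.624 TPM), COX19 (11.7 ± 0.709 TPM) and COX10 (12.7 ± 0.685 TPM), so 4 complex IV assembly factors were the scarcest of the set. Within complex II the order in the first control set was SDHB (225 TPM), SDHC (181 TPM), SDHD (129 TPM) and SDHA (93.8 TPM), neighbours that differ by more than their SDs. UQCRB at 20.2 TPM and ATP5ME at 653 TPM rest on the uncertain lengths above.

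The partners of these genes moved in part with them. All 6 mitochondrially encoded subunits of complexes III to V were higher in both, at medians of 5.62 and 4.52 on the log2 scale, led by MT-COX2 (6.16 and 5.72) and MT-ATP6 (6.20 and 4.91), far beyond any nuclear member; MT-ATP8, which overlaps MT-ATP6, was not higher in siMapk8+9 with the length trend removed (-0.18). Of 41 assembly factors of complexes II to V (beside the COX-named members), siMapk14 gave 34 higher and 1 lower at a median of 0.84, and siMapk8+9 gave 28 higher and 2 lower at a median of 0.98. Among them SURF1, which helps build complex IV around COX1, rose by 1.31 and 1.43, COA6 by 1.48 in siMapk14, and SCO2, a copper metallochaperone, by 2.23 in siMapk8+9. With the length trend removed the counts were 24 and 1, and 12 and 2. Under total-count scaling they were 9 and 7 in siMapk14, and 11 and 6 in siMapk8+9.

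Of 14 citric acid cycle enzymes, siMapk14 gave 9 higher and 2 lower (median 0.39) and siMapk8+9 gave 5 higher and 1 lower (median 0.27). Under total-count scaling the counts were 0 and 7, and 2 and 5. IDH3B, MDH2 and SUCLG1 rose in both, by 0.93, 0.91 and 0.97 in siMapk14 and by 0.98, 1.29 and 1.12 in siMapk8+9. Of 19 tested genes of ubiquinone synthesis and electron entry, siMapk14 gave 9 higher and 3 lower and siMapk8+9 gave 11 higher and 3 lower. With the length trend removed these were 5 and 7, and 4 and 3, and total-count scaling gave 0 higher and 10 lower in siMapk14 and 3 and 4 in siMapk8+9. ETFA, which carries electrons from fatty acid oxidation, rose by 0.69 and 0.99, and GPD2, the mitochondrial glycerol phosphate dehydrogenase, fell by 0.76 and 1.18. Of 13 regulators of nuclear respiratory genes, siMapk14 gave 5 higher and 4 lower (median 0.36) and siMapk8+9 gave 2 higher and 5 lower (median -0.20). With the length trend removed none was lower in either, with 5 and 2 higher at medians of 0.30 and 0.10, whereas total-count scaling gave 0 higher and 7 and 6 lower. TFB2M, a mitochondrial transcription factor, rose by 1.08 and 0.56, and GABPA, an ETS factor, fell by 0.41 and 0.62, values that were -0.01 and -0.08 with the length trend removed. None of these counts is a test of its list.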

How the data were processed

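Bulk RNA sequencing of 12 MIO-M1 libraries in 2 experiments was analysed. Per the labels' protocols, RNA from TRIzol was selected for poly(A) tails with oligo(dT) beads and copied from random primers; strand is not given in the sources used here, so reads of overlapping antisense genes cannot be told apart. Tools listed in the submitters' processing notes are RSEM 1.3.1, Bowtie2 2.3.4.3 and, separately, DESeq2 1.4.5, with the build GRCh38.p14. The authors deposited expected counts per gene (estimated fragments, not normalized), FPKM (per kilobase of effective length and scaled to fragment totals) and TPM (scaled to a common sum per library) for 17598 and 17146 genes. Of the per-library columns, 12 had no use here. No single-cell data were analysed here.

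Counts were rounded and fitted in R 4.3.3 with edgeR 4.0.16 (filterByExpr, minimum count 10 and minimum total 15; TMM; robust quasi-likelihood F-test), each experiment alone, and the difference in 1 fit of all 12 libraries over the genes of both tables (13183, 13124 and 13648 genes tested). P-values were adjusted by Benjamini-Hochberg over all genes of a comparison. 1 count equals 0.0317 to 0.108 CPM. Effective length is count over FPKM, for 14034 genes (values with 10 or more counts and FPKM from 0.2 upward); trends were removed by lowess (span 0.3). Alternatives were RLE and total-count scaling, no filter, leaving out the mitochondrially encoded genes, the length trend, DESeq2 1.42.0, a replicate block, fitting all 12 libraries jointly, and omitting every library in turn; GENCODE 29 lengths, effective-length offsets and the trend without siMapk8+9 replicate 2 were added after the data were seen. TPM ratios, as deposited and over nuclear-encoded genes, were added after the data were seen. Replicates of a group were not identical and differed by more than sampling noise.

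The looser NRF1 motif was added after the sequences were seen. The members and lists were chosen with earlier results of these data known. Genes are named by a rule: a set list of subunits and factors, the highest and lowest fold change of each complex past the threshold, members that fell or did not pass, members that pass for the difference, up to 3 genes of each other list by smallest adjusted p, and the siRNA targets. Members are matched to RefSeq GRCh38.p14 for coordinates and to 47 promoters. Scripts were tested on simulated data. Python 3.11.15 and matplotlib 3.10.9 drew the plots.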

Additional observations from a re-analysis of the deposited data

Results flagged for a closer look

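SDHA, the flavoprotein of complex II, differed between the knockdowns by -0.81 on the log2 scale (siMapk14 effect minus siMapk8+9 effect, edgeR adjusted p = 0.000478), from -0.16 in siMapk14 to 0.64 in siMapk8+9. It was below its controls in 3 of 3 siMapk14 libraries and above them in 3 of 3 siMapk8+9 libraries, and the difference was -0.80 with the length trend removed (edgeR adjusted p = 0.000199). Under total-count scaling it was -0.91 and did not pass (edgeR adjusted p = 0.0623).

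UQCRC1, a core protein of complex III, differed by -0.65 (edgeR adjusted p = 0.0475), from 0.50 in siMapk14 to 1.15 in siMapk8+9. It was above its controls in 3 of 3 libraries of each, and the adjusted p ran from 2.53e-05 to 0.11 when each library was left out in turn. It did not pass with RLE factors (edgeR adjusted p = 0.0537) or without a filter on low counts (edgeR adjusted p = 0.0523).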

How the results depend on the processing

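With 3 libraries a group, single genes near the threshold are uncertain, and depth limits the members under the filter, where a count of 0 allows up to 3 counts (0.0952 to 0.324 CPM). RLE factors, DESeq2, the mitochondrially encoded genes left out, no filter on low counts and a joint fit moved the count of higher members in each knockdown to between 45 and 49. For members lower in siMapk14 the count of 0 became 1 without the mitochondrially encoded genes, without a filter and with each library's effective length as an offset (medians 0.99 without a filter and 0.99 with the offset), and for siMapk8+9 it became 1 without a filter and 1 in the joint fit. Total-count scaling gave 32 higher and 5 lower members in siMapk14 (median 0.31) and 2 lower in siMapk8+9 (median 0.61), and for the difference 8 lower members and 1028 genes of all kinds. With the effective-length trend removed, 28 members were higher and 1 lower in siMapk14 (median 0.26), 22 and 1 in siMapk8+9 (0.31), and 2 members were higher for the difference. On GENCODE lengths 3 were lower in siMapk14 (0.33), 26 higher and 3 lower in siMapk8+9 (0.39), and 2 higher and 4 lower for the difference. With the trend removed and siMapk8+9 replicate 2 left out, 4 were lower in siMapk8+9 (0.41), and for the difference 5 were higher, 15 lower and 4628 genes of all kinds passed. For the difference the 2 lower members became 1 with RLE factors, without the mitochondrially encoded genes and without a filter, and 4 with DESeq2. Leaving out each library in turn gave 47 to 50 higher and 0 to 1 lower members in siMapk14, and 42 to 50 higher and 0 to 1 lower members with 4509 to 9554 genes of all kinds in siMapk8+9. For the difference it gave 0 to 2 higher and 1 to 33 lower members with 1266 to 5205 genes of all kinds, the 33 without siMapk8+9 replicate 2. Medians over the members ran from 1.06 to 1.14, from 1.23 to 1.70 and from -0.48 to -0.10. The replicate numbers do not pair the libraries: same-numbered libraries correlated in their deviations from the group mean at 0.00 to 0.05 in siMapk14 and at -0.03 to -0.02 in siMapk8+9. With the replicate block 48 and 45 members were higher (medians 1.09 and 1.31), and for the difference 1 member was lower and 1179 genes of all kinds passed. 

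Single members that passed the threshold before or after and whose sign turned are given with the log2 value under the alternative. For the difference, counting members that passed in neither, 20 signs turned with the effective-length trend removed and 17 on GENCODE lengths. Under total-count scaling they were SDHC -0.24, UQCRC1 -0.27, UQCRC2 -0.10, COX11 -0.36, COX15 -0.67, COX18 -0.22, COX19 -0.059, COX20 -0.49, ATP5F1A -0.35, ATP5F1B -0.029 and ATP5MC3 -0.0076 in siMapk14, and SDHA -0.029, CYCS -0.018 and COX16 -0.074 in siMapk8+9. With the effective-length trend removed they were SDHC -0.12, COX7A2 -0.14, ATP5F1D -0.065, ATP5ME -0.11, ATP5MF -0.089 and ATP5IF1 -0.022 in siMapk14, SDHC -0.16, COX17 -0.10, ATP5F1D -0.20, ATP5MC1 -0.17, ATP5ME -0.54, ATP5MF -0.50, ATP5MK -0.094 and ATP5PF -0.23 in siMapk8+9, and ATP5MF 0.39 and ATP5PF 0.38 for the difference. On GENCODE lengths they were SDHC -0.53, COX11 -0.18, COX20 -0.045, ATP5F1D -0.00104 and ATP5MF -0.069 in siMapk14, SDHC -0.76, CYCS -0.22, COX11 -0.43, ATP5F1D -0.13, ATP5MC1 -0.046, ATP5MC3 -0.094 and ATP5MF -0.47 in siMapk8+9, and ATP5MF 0.35 for the difference. With the trend removed and siMapk8+9 replicate 2 left out they were SDHC -0.15, COX7A2 -0.018, COX14 -0.0014, COX17 -0.16, COX18 0.71, ATP5F1D -0.23, ATP5MC1 -0.17, ATP5ME -0.79, ATP5MF -0.48, ATP5MK -0.22 and ATP5PF -0.21 in siMapk8+9, and ATP5ME 0.64, ATP5MF 0.37, ATP5MK 0.29 and ATP5PF 0.36 for the difference. The cause was not tested.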
